A study of Homo sapiens with 12 samples.

Results

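The 8 genes described here, of 19919 in the count table, mark germinal centre B cells: MME, CD38, BCL7A, LMO2, SERPINA9, GCSAM, MYBL1 and ELL3. They were chosen by symbol, each symbol stood in 1 row, and all 8 had enough reads to be tested. RNA sequencing had been done on Raji and Daudi, established lines grown from Burkitt lymphoma, with 4 libraries each of Raji wild type and Raji FBXO11 knockout and 2 libraries each of Daudi wild type and Daudi FBXO11 knockout. The comparison asked how expression differs once FBXO11 is lost. FBXO11 is the substrate receptor of a ubiquitin ligase that directs BCL6, a repressor of transcription on which germinal centres depend, to degradation. Per the labels, the knockout cells carried CRISPR/Cas9 disruption of FBXO11 at exon 4, from a lentiCRISPR v2 vector with 2 guides, and had been selected with puromycin and grown from single cells into clones lacking functional alleles. The labels do not describe the wild-type cells as transduced, selected or cloned, so knockout, vector, selection and cloning cannot be told apart. They also do not say which guide or clone each knockout library stands for, nor that libraries of a group were separate cultures, so p-values measure the spread between these libraries.

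Germinal centres are the follicle structures in which B cells that have met antigen divide, mutate their immunoglobulin genes and are selected for binding. Cells of the dark zone divide and mutate, cells of the light zone test their receptor and receive help from T cells, and survivors leave as memory or plasma cells. Burkitt lymphoma, a tumour driven by MYC, keeps the expression pattern of dark zone cells, and surface CD10 (the product of MME) and CD38 are used with BCL6 in its diagnosis, whereas LMO2 protein is often low or absent in it. Several of the 8 genes also stand on the germinal centre side of classifiers that assign the origin of large B cell lymphomas.

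Total counts ranged from 11164332 to 23557920 per library, with Raji wild-type replicate 2 the shallowest, and a floor of 3 counts was worth 0.118 to 0.275 CPM (counts-per-million, after trimmed-mean scaling of libraries, TMM). Each of the 7 pan-B cell markers was present in every library, and their summed level was lower in every knockout library than in the wild-type libraries of the same line (Raji 2490 to 3008 against 3133 to 3487 CPM, Daudi 2198 to 2443 against 2798 to 3575 CPM). In each line, 2 of the 7 went the other way in their means. From wild type to knockout these were CD79B (526 to 595 CPM) and BLK (131 to 147) in Raji, and CD79B (362 to 373) and PAX5 (196 to 216) in Daudi. Raji wild-type replicates 3 and 4 differed far less than other replicates, with a chi-square per degree of freedom of 2.18 against 21.9 to 171 for the other 13 pairs within groups. FBXO11 transcripts were counted in all groups: knockout against wild type gave log2 -0.67 in Raji (adjusted p = 0.208) and 0.44 in Daudi (adjusted p = 0.646), and gene counts do not read the edit itself. Of the exonic bases of FBXO11, 25.2% also belong to MSH6 of the opposite strand, and the kit did not record the strand of origin. MSH6 was at log2 -0.08 in Raji and 0.69 in Daudi, neither called. Its part in the FBXO11 counts was not tested. Genes were tested with edgeR's quasi-likelihood test over all 12 libraries and called at a Benjamini-Hochberg adjusted p under 0.05 over the 12027 genes tested.

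MME rose in the knockout libraries of both lines, and CD38 rose in Raji. BCL7A rose and LMO2 fell in Daudi, while SERPINA9, GCSAM, MYBL1 and ELL3 passed the test in neither line. Of these calls within a line, only that of MME in Raji held in every fit without 1 library and every other way of fitting. In Raji, 2 of the 8 genes were called, both higher, against 2.6% of all genes tested (0.923% higher and 1.68% lower). In Daudi, 3 of 8 were called, 2 higher and 1 lower, against 2.62% of all genes (0.798% higher and 1.82% lower). Knockout and wild-type libraries did not overlap for 3 of the 8 genes in Raji, where this held for 11.8% of all genes, and for 7 of 8 in Daudi, where with 2 libraries a group it held for 39.7%. The median log2 change of the 8 genes was 0.27 in Raji and 0.06 in Daudi, beside 0.01 and 0.00080 over all genes. Their median absolute change was 0.50 in Raji and 0.84 in Daudi, beside 0.21 and 0.28 over all genes. In bulk RNA, fewer cells expressing a gene and less of its RNA per cell cannot be told apart.

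**Figure D1:**
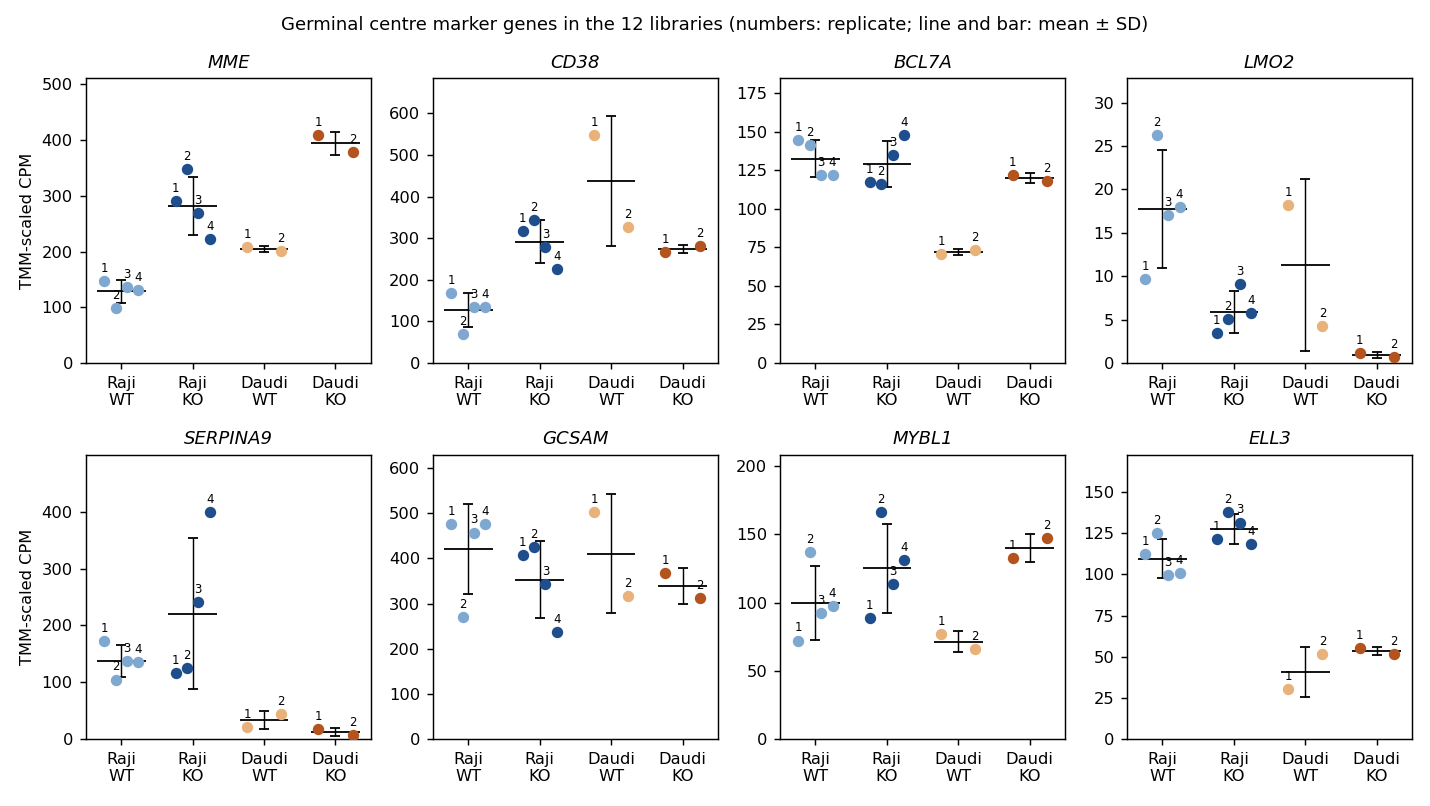
TMM-scaled CPM (linear axes from 0) of the 8 germinal centre markers in every library of Raji and Daudi wild type (WT) and FBXO11 knockout (KO), with replicate numbers beside the points and the group mean ± SD as line and bar. MME is higher in all knockout libraries than in the wild-type libraries of the same line, and LMO2 is lower.

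MME and CD38 are the 2 surface enzymes among the markers. MME encodes CD10, or neprilysin, a membrane metalloprotease that cleaves small peptides. It lies on chromosome 3, positions 155024124 to 155183729, plus strand (GRCh38, GENCODE 29). CD38, a surface enzyme that consumes NAD to make ADP-ribose and cyclic ADP-ribose, is encoded on chromosome 4, positions 15778275 to 15853230, plus strand.

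In Raji wild type, MME stood at 147, 99.4, 136 and 132 CPM in replicates 1 to 4. The Raji knockout libraries had 290.5, 347, 269 and 222 CPM. All 4 knockout libraries were above all 4 wild-type libraries, and group means were 128 ± 20.4 (SD, n = 4) and 282 ± 52.01 (SD, n = 4). The difference was log2 1.13 (SE 0.16, adjusted p = 0.00358), or 2.20-fold. Leaving out any 1 of the 12 libraries gave 1.02 to 1.23, and MME was called each time. In Daudi, wild-type libraries had 209 and 201 CPM of MME and knockout libraries 409 and 380 CPM. Again the groups did not overlap, with means of 205 ± 5.41 (SD, n = 2) and 394 ± 20.5 (SD, n = 2). The Daudi difference was log2 0.94 (SE 0.22, adjusted p = 0.048), or 1.92-fold. Its size barely moved when 1 library was left out, from 0.89 to 1.00, but the call was lost in 9 of the 12 fits, with adjusted p up to 0.237. It was kept only without Raji wild-type replicate 2, Raji knockout replicate 2 or Raji knockout replicate 4, and of 6 other ways of fitting the data only DESeq2 kept it. The knockout effects of the lines differed by log2 0.19 (95% interval -0.44 to 0.82, adjusted p = 0.842). Over both lines with equal weight, MME rose by log2 1.04 (SE 0.14, adjusted p = 0.00269). That call held in all 12 fits without 1 library and in 5 other ways of fitting.

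For CD38, Raji wild type had 168, 70.9, 135 and 134 CPM in replicates 1 to 4. Raji knockout had 318, 344, 279 and 225 CPM. Every knockout library was above every wild-type library, and replicate 2 of the wild type was the lowest by a wide gap. Means were 127 ± 40.4 (SD, n = 4) and 292 ± 51.6 (SD, n = 4), a rise of log2 1.199 (SE 0.25, adjusted p = 0.0294), or 2.30-fold. Fits without 1 library gave 0.99 to 1.37, and the call was lost without Raji wild-type replicate 3 or 4 or without Raji knockout replicate 1, 2 or 3 (adjusted p up to 0.0955), and with Raji wild-type replicates 3 and 4 summed as 1 library (adjusted p = 0.0942). Daudi went the other way in its levels. Its wild-type libraries had 547 and 327 CPM and its knockout libraries 267 and 281 CPM. Both knockout libraries were below both wild-type libraries, but the wild-type pair was far apart, and the difference of log2 -0.67 (SE 0.35, 95% interval -1.48 to 0.13) did not pass the test (adjusted p = 0.427). Without Daudi wild-type replicate 1 it was -0.26, and without replicate 2 it was -0.99.

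The knockout effect on CD38 in Raji exceeded that in Daudi by log2 1.87 (SE 0.43, 95% interval 0.88 to 2.87). After adjustment over all genes the difference was not called (adjusted p = 0.0742). It was called without Daudi wild-type replicate 2 (log2 2.20, adjusted p = 0.0254) and with DESeq2 (adjusted p = 0.00234). None of the 8 genes passed edgeR's test of the difference between lines, beside 0.773% of all genes (0.474% higher in Raji and 0.299% lower). At an unadjusted p under 0.05 there were 4, namely CD38, BCL7A, LMO2 and SERPINA9, with no share of all genes at that threshold to set beside them. DESeq2 called 2, CD38 and BCL7A, and limma-voom 0. Both tools called more of all genes than edgeR did in this comparison.

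**Figure D2:**
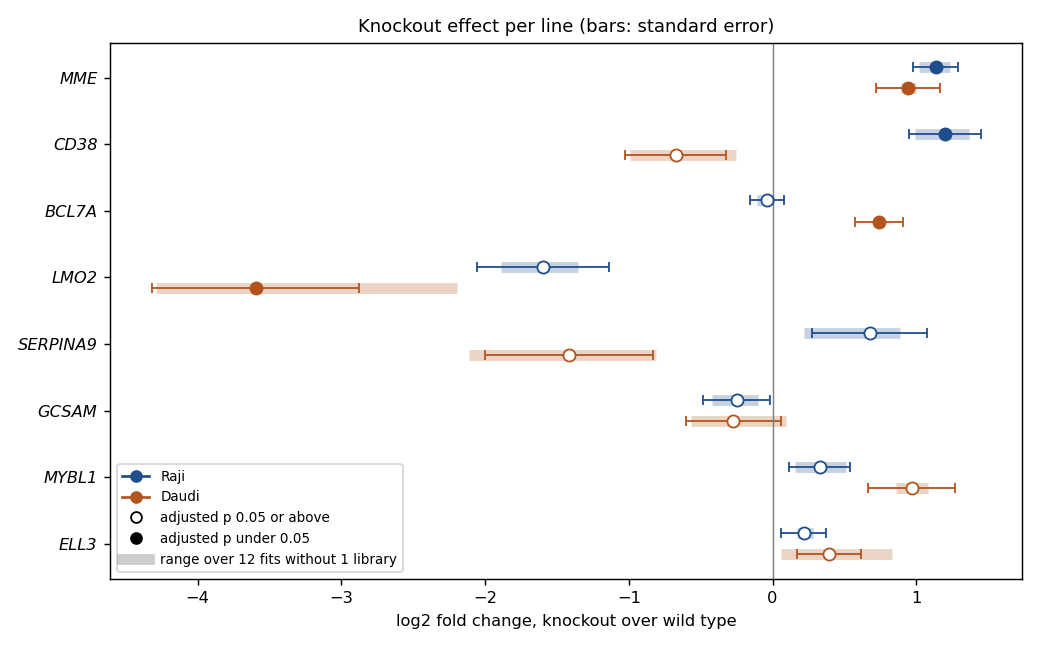
Log2 fold change of knockout over wild type for each marker in Raji (blue) and Daudi (orange), with bars of 1 standard error, filled points for an adjusted p under 0.05, and shaded ranges over the 12 fits without 1 library. CD38 is called at 1.199 in Raji and lies at -0.67 in Daudi, and the range of LMO2 in Daudi, -4.29 to -2.19, is the widest.

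LMO2 and MYBL1 are the 2 transcriptional regulators among the markers. LMO2 is a LIM domain adaptor that holds together complexes of other transcription factors, encoded on chromosome 11, positions 33858576 to 33892289, minus strand. Raji wild-type replicates 1 to 4 had 9.67, 26.2, 17.1 and 18.0 CPM of LMO2. Raji knockout replicates had 3.43, 5.07, 9.15 and 5.77 CPM. The groups did not overlap, although the highest knockout library came close to the lowest wild-type library. The difference was log2 -1.60 (SE 0.46, 95% interval -2.66 to -0.54) and missed the threshold (adjusted p = 0.0963). DESeq2 (adjusted p = 0.013), limma-voom (0.00135) and a fit of Raji alone (0.0444) called it, and so did the fits without Daudi wild-type replicate 1 (0.0381) or replicate 2 (0.0374). In Raji, DESeq2 and above all limma-voom called more of all genes than edgeR did. In Daudi wild type, LMO2 stood at 18.2 and 4.25 CPM, which were 440 and 86 reads. Daudi knockout had 1.18 and 0.668 CPM, from 30 and 17 reads. Knockout was below wild type in both libraries, and the wild-type libraries differed from each other several-fold. LMO2 fell in Daudi (log2 -3.598, SE 0.72, adjusted p = 0.0225), or 12.1-fold. Without wild-type replicate 1 the log2 value was -2.19 (adjusted p = 0.222), and without wild-type replicate 2 it was -4.29. The call was also lost without knockout replicate 1 (log2 -4.06, adjusted p = 0.114) or knockout replicate 2 (-3.24, 0.259), with limma-voom (0.0686) and with Daudi fitted alone (0.145). Over both lines LMO2 fell by log2 2.60 (SE 0.43, adjusted p = 0.00766). This call was lost in 1 of 12 fits, without Daudi knockout replicate 2 (-2.42, adjusted p = 0.0809). The effects of the lines differed by log2 2.00 (95% interval 0.11 to 3.89, adjusted p = 0.315).

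MYBL1, or A-MYB, is a DNA-binding transcription factor of the MYB family that is active in dividing germinal centre cells. Raji wild type had 72.3, 137, 92.6 and 97.2 CPM of it. Raji knockout had 88.9, 167, 114 and 131 CPM, which overlapped the wild type. The difference of log2 0.33 (95% interval -0.17 to 0.82) did not pass the test (adjusted p = 0.525). Daudi wild type had 77.2 and 65.9 CPM and Daudi knockout 133 and 147 CPM, with no overlap. The Daudi difference was log2 0.97 (SE 0.31), of about the size of that of MME, but with an adjusted p of 0.139, and no fit without 1 library called it. Over both lines the value was 0.65 (SE 0.19, adjusted p = 0.0856), and only DESeq2 called it (adjusted p = 0.0224).

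BCL7A and ELL3 act on chromatin and on transcription. BCL7A is a subunit of SWI/SNF chromatin remodelling complexes, encoded on chromosome 12, positions 122019422 to 122062044, plus strand. Raji wild type had 145, 141, 122 and 122 CPM of it, and Raji knockout 117, 116, 135 and 148 CPM. These overlapped almost fully, and the difference was log2 -0.04 (95% interval -0.31 to 0.23, adjusted p = 0.936). In Daudi wild type BCL7A stood at 70.5 and 73.2 CPM, and in Daudi knockout at 122 and 118 CPM. The pairs were tight and did not overlap. BCL7A rose in Daudi by log2 0.74 (SE 0.17, adjusted p = 0.0392), or 1.67-fold. Fits without 1 library gave 0.71 to 0.77 but called it in only 3 of 12, without Raji knockout replicate 2, Raji knockout replicate 4 or Daudi wild-type replicate 2 (adjusted p in the others up to 0.228). The effect in Raji was lower than that in Daudi by log2 -0.78 (95% interval -1.25 to -0.31, adjusted p = 0.114), a difference that DESeq2 called (adjusted p = 0.00718). Mean levels of BCL7A in the knockout cells were 129 ± 15.1 (SD, n = 4) in Raji and 120 ± 3.01 (SD, n = 2) in Daudi.

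ELL3 is an elongation factor of RNA polymerase II, encoded on chromosome 15, positions 43772600 to 43777543, minus strand. Raji wild type had 112, 125, 99.2 and 101 CPM and Raji knockout 121, 138, 131 and 119 CPM, with overlap. Daudi wild type had 30.2 and 51.5 CPM and Daudi knockout 55.4 and 51.9 CPM, where only 1 wild-type library was clearly lower. The differences were log2 0.22 (95% interval -0.14 to 0.58, adjusted p = 0.572) in Raji, which limma-voom called (adjusted p = 0.0153), and 0.39 (95% interval -0.12 to 0.91, adjusted p = 0.477) in Daudi. Without Daudi wild-type replicate 2 the Daudi value was 0.83 and was called (adjusted p = 0.0303), and without replicate 1 it was 0.06. Counts of ELL3 are uncertain, since 54.1% of its exonic bases also belong to a gene model on the same strand (RP11-296A16.1, ENSG00000262560), 21.8% to PDIA3 and 14.4% to SERF2 of the opposite strand, and the kit did not record the strand of origin. The table gave the model on the same strand 16 to 49 reads per library beside 729 to 2715 for ELL3.

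SERPINA9 and GCSAM were both first known as transcripts of germinal centre B cells. SERPINA9, or centerin, is a protease inhibitor encoded on chromosome 14, positions 94462717 to 94479689, minus strand. Raji wild-type libraries had 173, 105, 138 and 136 CPM of it. Raji knockout libraries had 116, 125, 241 and 400 CPM, so replicates 1 and 2 lay within the wild-type range and replicates 3 and 4 above it. The difference of log2 0.68 (95% interval -0.25 to 1.60) did not pass the test (adjusted p = 0.466), and without knockout replicate 4 it was 0.22. The Daudi wild-type pair had 22.3 and 45.4 CPM and the knockout pair 17.5 and 7.82 CPM. Both knockout libraries were lower, and the difference of log2 -1.42 (95% interval -2.77 to -0.07) was not called (adjusted p = 0.283). The effects of the lines had opposite signs and differed by log2 2.09 (95% interval 0.46 to 3.73, adjusted p = 0.219).

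GCSAM, also named HGAL, is an adaptor that tunes B cell receptor signalling and cell movement, encoded on chromosome 3, positions 112120841 to 112133305, minus strand. Raji wild type had 477, 272, 457 and 476 CPM and Raji knockout 407, 426, 344 and 237 CPM. Daudi wild type had 503 and 317 CPM and Daudi knockout 367 and 312 CPM. Libraries of all 4 groups overlapped. The differences were log2 -0.25 in Raji (95% interval -0.79 to 0.29, adjusted p = 0.686) and -0.27 in Daudi (95% interval -1.03 to 0.49, adjusted p = 0.789). The Daudi sign rested on wild-type replicate 1, without which the value was 0.10.

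Within Raji wild type, replicate 2 was the lowest library for MME, CD38, SERPINA9 and GCSAM and the highest for LMO2, MYBL1 and ELL3. Without it, MME and CD38 were still called in Raji. Daudi wild-type replicate 1 had the higher level of CD38, LMO2 and GCSAM of the pair, and by smaller gaps of MME and MYBL1, and the lower level of SERPINA9 and ELL3. Without it, which leaves 1 library in that group, MME, BCL7A and LMO2 were no longer called in Daudi. The same held without either Daudi knockout replicate. Over the 12 fits without 1 library, the Daudi values stayed at log2 0.89 to 1.00 for MME and 0.71 to 0.77 for BCL7A.

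Over both lines with equal weight, 2 of the 8 genes were called, MME higher and LMO2 lower, beside 3.39% of all genes (1.2% higher and 2.2% lower). BCL7A had a log2 value of 0.35 (SE 0.10, adjusted p = 0.088) in this comparison and CD38 one of 0.26 (SE 0.21, adjusted p = 0.615).

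Before any knockout, the lines differed in 5 of the 8 genes, 3 higher and 2 lower in Raji, where 45.1% of all genes were called (20.3% higher and 24.8% lower). Levels in Raji wild type were lower than in Daudi wild type for CD38 (log2 -1.78, SE 0.29, adjusted p = 0.000425) and MME (log2 -0.67, SE 0.19, adjusted p = 0.0121). The MME call was lost without Daudi wild-type replicate 1 (-0.65, adjusted p = 0.058) and with limma-voom (-0.63, 0.0658). Levels were higher in Raji for SERPINA9 (log2 2.03, SE 0.54, adjusted p = 0.00938), ELL3 (log2 1.42, SE 0.21, adjusted p = 0.000181) and BCL7A (log2 0.88, SE 0.15, adjusted p = 0.00055). Without Daudi wild-type replicate 1 the SERPINA9 value was 1.60 and not called (adjusted p = 0.0945). SERF2, which shares exonic bases with ELL3, also differed between the wild-type lines, by log2 1.31 (SE 0.15, adjusted p = 2.49e-05), and its part in the ELL3 difference was not tested. LMO2 was not called (log2 0.65, adjusted p = 0.369), and its value ran from -0.04 without Daudi wild-type replicate 2 to 2.06 without replicate 1, where it was called (adjusted p = 0.0294). GCSAM (log2 0.04, adjusted p = 0.932) and MYBL1 (log2 0.48, adjusted p = 0.169) did not pass the test.

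The order of the groups therefore differed from gene to gene. For MME it was Daudi knockout, Raji knockout, Daudi wild type and Raji wild type, and no neighbours in this order overlapped. CD38 was highest in Daudi wild type, then Raji knockout and Daudi knockout, all of which overlapped with their neighbour, and lowest in Raji wild type, which stood apart. For BCL7A the first 3 groups (Raji wild type, Raji knockout, Daudi knockout) overlapped in turn and Daudi wild type was below them. LMO2 was highest in Raji wild type, then Daudi wild type and Raji knockout, each overlapping the next, with Daudi knockout below. SERPINA9 and ELL3 were higher in both Raji groups, which overlapped, than in both Daudi groups, which did not. For MYBL1 the order ran from Daudi knockout through Raji knockout and Raji wild type to Daudi wild type, and each group overlapped the next.

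**Figure D3:**
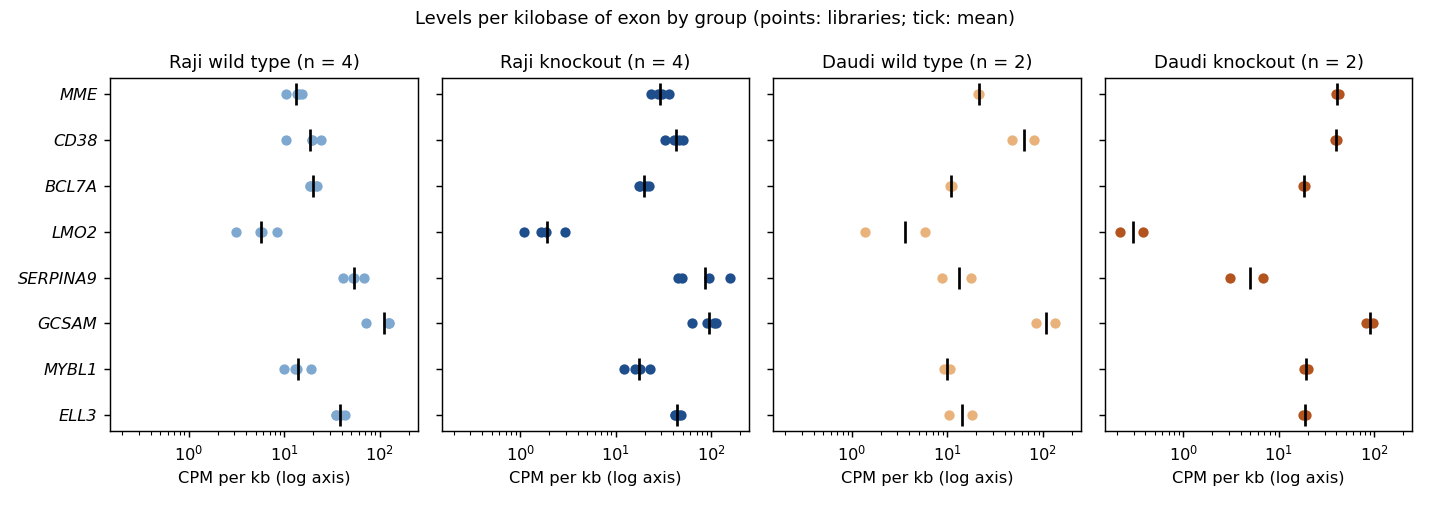
Levels of the 8 markers in CPM per kilobase of exon (log axis), by group, with a point per library and a tick at the mean. GCSAM has the highest mean of the 8 in every group, at 89.7 to 111 CPM per kilobase, and LMO2 the lowest, at 0.298 to 5.71. In Raji knockout the libraries of GCSAM overlap those of SERPINA9.

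Levels per kilobase of exon allow the genes to be set against each other only roughly. The lengths count every annotated exon base of a gene, whether or not these cells use that exon. GCSAM had the highest mean in all groups, with 111 ± 26.3 CPM per kilobase in Raji wild type and 108 ± 34.8 in Daudi wild type. These means placed it at percentiles 97.8 and 97.9 of 11993 tested genes with a known length. In Raji knockout GCSAM (93.4 ± 22.5) overlapped SERPINA9 (86.1 ± 51.7). SERPINA9 ranked 2 of 8 in Raji wild type (53.9 ± 10.8 CPM per kilobase), but 7 of 8 in Daudi knockout (4.94 ± 2.68 CPM per kilobase). CD38 ranked 2 in Daudi wild type, at 63.8 ± 22.7 CPM per kilobase. LMO2 was last in every group, and its mean in Daudi knockout, 0.298 ± 0.117 CPM per kilobase, stood at percentile 12.3. MME ranked 7 in Raji wild type (13.4 ± 2.12 CPM per kilobase) and 5 in Raji knockout (29.3 ± 5.41).

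The sequence upstream of the start could be read from RefSeq (GRCh38.p14) for 6 of the 8 genes in 9 windows of 250 bases, and the stretches outside annotated exons are shown for 3 of them. MME and CD38 are shown because they are the pair called in Raji, and GCSAM because it is the one gene with a match to the BCL6-type core TTCNNNGAA (N for any base). Capitals mark matches to the motifs searched. The stretches are chr3:155079422-155079646 on the plus strand for MME, which lies inside the gene between exons of longer transcripts, chr4:15778078-15778274 on the plus strand for CD38 and chr3:112133306-112133498 on the minus strand for GCSAM.
MME: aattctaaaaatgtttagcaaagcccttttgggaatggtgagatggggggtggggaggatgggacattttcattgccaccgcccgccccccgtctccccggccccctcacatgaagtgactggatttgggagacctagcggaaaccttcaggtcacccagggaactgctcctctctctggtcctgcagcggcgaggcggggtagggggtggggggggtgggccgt
CD38: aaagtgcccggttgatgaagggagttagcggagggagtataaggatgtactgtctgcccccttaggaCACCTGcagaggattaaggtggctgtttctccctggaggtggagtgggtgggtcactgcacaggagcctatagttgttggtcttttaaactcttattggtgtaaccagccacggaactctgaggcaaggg
GCSAM: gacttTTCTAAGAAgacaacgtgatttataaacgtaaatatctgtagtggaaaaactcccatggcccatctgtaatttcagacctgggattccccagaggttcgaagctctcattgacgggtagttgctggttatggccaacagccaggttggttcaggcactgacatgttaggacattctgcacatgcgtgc
The core TTCNNNGAA, which BCL6 and STAT factors can bind, was found on either strand in 6.57% of 35116 promoter windows of that length and in 1 of the 9 windows here, 245 bases before the start of GCSAM. The E-box CAGGTG, or CACCTG on the other strand, which E proteins can bind, was in 17.5% of all windows and in 4 of 9 here, from 3 genes: CD38, 183 bases before its start, BCL7A, and 2 overlapping windows of MME that hold the same site. The octamer ATGCAAAT, bound by OCT factors of B cells, was in 1.63% of all windows. It stood at 2 positions in the SERPINA9 window, 133 and 96 bases before the start used. Both octamers fall on annotated exon bases of SERPINA9, which fill 136 of that window's 250 bases. All 250 bases of the BCL7A window are annotated exon of BCL7A. Both windows, like those of MME, lie inside the gene positions given above, not upstream of the whole gene. No match to 1 motif overlapped a match to another in these windows. A match describes these letters only. The MME stretch shown held none of the 3 motifs.

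Other genes of the germinal centre programme were counted beside the 8 markers. Of 20 such genes, all tested, 2 fell and 0 rose in Raji by edgeR (5 at an unadjusted p under 0.05, 3 called by DESeq2 and 8 by limma-voom), while edgeR called 0 in Daudi, with 3 at an unadjusted p under 0.05 and 0 called by DESeq2 or limma-voom. For this and the lists below, counts at an unadjusted p have no share over all genes beside them. In Raji, DESeq2 and above all limma-voom also called more of all genes than edgeR did, so their higher list counts say little about the lists. TCL1A, a coactivator of AKT kinases, fell in Raji from 327 ± 57.3 to 183 ± 35.6 CPM (log2 -0.84, adjusted p = 0.023), a call lost without Raji wild-type replicate 3 or 4 or knockout replicate 2. BCL6 fell in Raji from 406 ± 70.3 to 241 ± 42.7 CPM (log2 -0.75, adjusted p = 0.0352), a call kept in 4 of 12 fits without 1 library, those without Raji wild-type replicate 1, Raji knockout replicate 2 or either Daudi wild-type replicate. In Daudi, the wild-type mean of BCL6 was 176 ± 26.4 CPM and the knockout mean 280 ± 2.18 CPM (log2 0.67, adjusted p = 0.189). The knockout effects on BCL6 differed between the lines by log2 -1.42 (SE 0.29, adjusted p = 0.0483), kept in 3 of 12 such fits, those without Raji wild-type replicate 1, Raji knockout replicate 2 or Daudi wild-type replicate 2. The median log2 change of the 20 genes was -0.03 in Raji and 0.14 in Daudi. Between the wild-type lines, 6 of the 20 were higher and 8 lower in Raji. A further list held 9 other genes of the cell-of-origin classifier. Not all of them are on its germinal centre side, and TRIM56 is not. ITPKB, an inositol phosphate kinase that is on that side, rose in Raji (62.4 ± 5.69 to 89.6 ± 5.15 CPM, log2 0.52, adjusted p = 0.035). Its call was kept only without Raji wild-type replicate 1 or either Daudi wild-type replicate. No gene of that list was called in Daudi by edgeR, with 5 at an unadjusted p under 0.05 and 3 called by DESeq2. TRIM56, a ubiquitin ligase of antiviral signalling, fell over both lines (log2 -0.80, adjusted p = 0.0361), in 3 of 12 fits without 1 library, those without Raji knockout replicate 1, Raji knockout replicate 4 or Daudi wild-type replicate 2. All 7 tested genes of the activated B cell side missed edgeR's threshold in both lines, with medians of -0.37 in Raji and -0.49 in Daudi. At an unadjusted p under 0.05 there were 1 in Raji and 3 in Daudi, and limma-voom called 1 in Raji.

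Of 14 light zone and activation genes, 3 fell and 0 rose in Raji by edgeR, where DESeq2 called 4 and limma-voom 6. SEMA7A, a semaphorin held at the cell surface, had 62.7 ± 17.0 CPM in wild type against 6.91 ± 1.98 in knockout (log2 -3.18, adjusted p = 0.000257), and was called in all 12 fits without 1 library. SLAMF1, a self-ligand receptor of lymphocytes, fell from 72.5 ± 19.5 to 35.0 ± 8.40 CPM (log2 -1.05, adjusted p = 0.023), not called without Raji wild-type replicate 2 or knockout replicate 1 or 2. EBI3, a subunit of the cytokines IL-27 and IL-35, fell from 26.9 ± 3.04 to 7.07 ± 3.52 CPM (log2 -1.93, adjusted p = 0.0296), called in 5 of 12 fits, those without Raji knockout replicate 4 or any 1 Daudi library. In Daudi EBI3 was the 1 of 14 that fell by edgeR (DESeq2 called 4 and limma-voom 0), at low levels of 5.62 ± 2.14 and 0.69 ± 0.642 CPM (log2 -3.02, adjusted p = 0.0328), called in 7 of 12 fits and not without Raji wild-type replicate 3 or 4, Raji knockout replicate 3, Daudi wild-type replicate 1 or Daudi knockout replicate 2 (without the last, -2.29; without Daudi knockout replicate 1, -4.54). Over both lines EBI3 fell by log2 2.47 (adjusted p = 0.00637), in all 12 fits. The medians of the list were -0.30 in Raji and -0.72 in Daudi, beside 0.01 and 0.00080 over all genes. In Daudi 14 of 14 values were negative, with no share of negative values over all genes to set beside them.

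Of 11 tested plasma cell genes, edgeR called 0 in Raji and 0 in Daudi, with medians of -0.19 and -0.25. At an unadjusted p under 0.05 there were 2 and 4, DESeq2 called 0 and 1, and limma-voom 4 and 2. CD38 is carried by plasma cells too. Naive and memory B cell genes numbered 8 tested, of which edgeR called 0 in Raji (5 at an unadjusted p under 0.05, 2 by DESeq2 and 4 by limma-voom). In Daudi 1 fell, ENTPD1 (CD39, an enzyme that removes phosphates from extracellular ATP). It went from 2.85 ± 0.19 CPM to 0.157 and 0.158 CPM in the knockout libraries, near their floor of 3 counts (0.118 CPM). The difference of log2 -4.12 (adjusted p = 0.0256) is therefore uncertain in size. Its call was lost without Daudi wild-type replicate 1 or either Daudi knockout replicate.

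**Figure D4:**
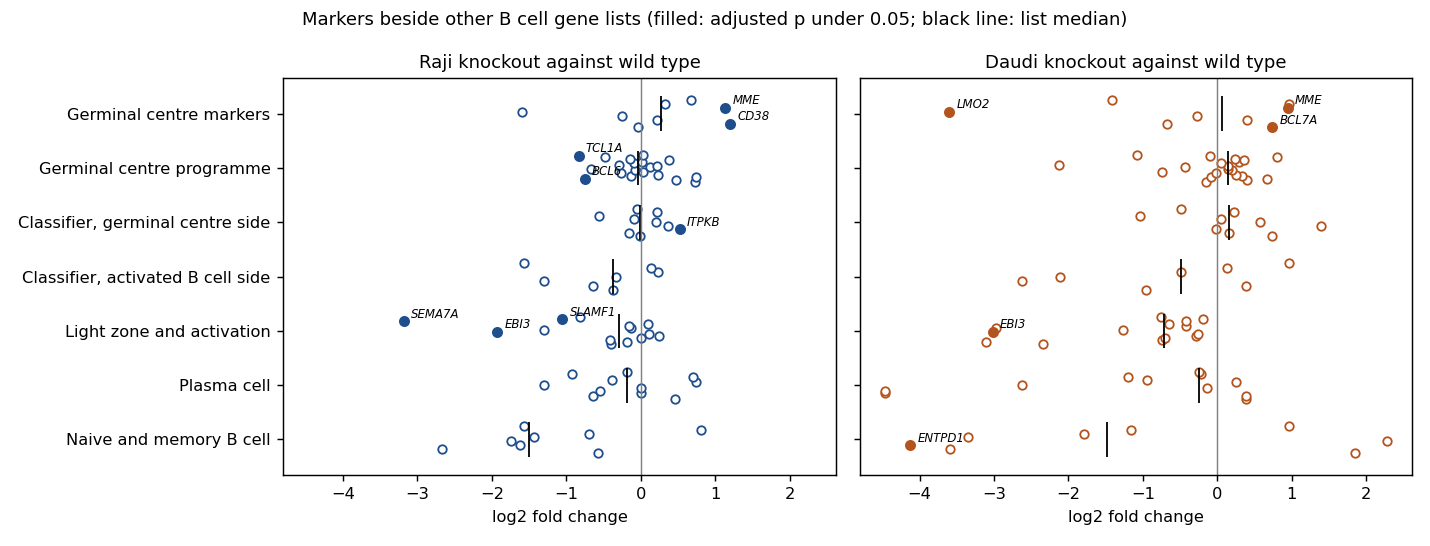
Log2 fold change of knockout over wild type for the 8 markers and for the tested genes of 6 further lists of B cell genes, in Raji (left) and Daudi (right), with a point per gene, filled where the adjusted p is under 0.05, and a black line at the list median. The germinal centre markers spread to both sides of 0 in each line, and EBI3 is filled in both panels. The list labelled as the classifier's germinal centre side also holds classifier genes that are not on that side.

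Markers of other cells and of interferon signalling also differed in some comparisons. In Daudi, 10 of 12 interferon response genes fell and 0 rose (a list chosen after earlier results were known). EdgeR called 0 of 12 in Raji (3 at an unadjusted p under 0.05, 1 by DESeq2 and 4 by limma-voom). The summed level of these 12 genes was 8267 and 3659 CPM in Daudi wild-type replicates 1 and 2 and 356 and 217 CPM in the knockout libraries. Daudi wild-type replicate 1, with the higher sum, had the higher CD38, LMO2, GCSAM, MME and MYBL1 of the pair. It had the lower BCL7A, SERPINA9 and ELL3. In Raji the sum was 103 to 125 CPM in wild type and 76.7 to 129.9 CPM in knockout. MS4A1, the gene of the B cell antigen CD20, also fell in Daudi (1044 ± 416 to 473 ± 63.4 CPM, log2 -1.14, adjusted p = 0.0357), called in 4 of 12 fits and without Daudi wild-type replicate 1 at -0.67 and not called (the others that ended the call left out Raji wild-type replicate 2, 3 or 4, Raji knockout replicate 1 or 2, or either Daudi knockout replicate). Over both lines, 2 of the 7 pan-B cell markers fell, and the list's median was -0.26. MS4A1 was at log2 -0.66 (adjusted p = 0.0383), called in 2 of 12 fits, those without Raji knockout replicate 4 or Daudi wild-type replicate 2. CD22, an inhibitory receptor of B cells, was at -0.68 (adjusted p = 0.0288), called in 6 of 12 fits and not without Raji wild-type replicate 3 or 4, Raji knockout replicate 3, Daudi wild-type replicate 1 or either Daudi knockout replicate. In Raji alone edgeR called 0 of the 7, with 3 at an unadjusted p under 0.05 and 3 called by DESeq2 and by limma-voom, and the median was -0.42. The part of the interferon and pan-B cell signals in the marker values was not tested. Among 9 myeloid markers the sum was 3.21 to 7.94 CPM in Raji wild type, 1.01 to 2.82 in Raji knockout, 30.9 to 59.8 in Daudi wild type and 14.3 to 21.3 in Daudi knockout, with S100A8 at 0 in every library. Of the 4 tested, edgeR called 1 lower in Raji, 0 in Daudi (2 at an unadjusted p under 0.05, 2 by DESeq2 and 0 by limma-voom) and 2 lower over both lines. CSF1R, the receptor of a macrophage growth factor, fell in Raji from 1.26 ± 0.303 CPM to 0.146 ± 0.112 CPM, about the floor of 3 counts (log2 -3.11, adjusted p = 0.00468), and over both lines (log2 -2.24, adjusted p = 0.00407), each in all 12 fits. CD68, a lysosomal protein of macrophages, was the other over both lines (log2 -3.90, adjusted p = 0.0187). Without Daudi wild-type replicate 1 it was -2.15 and not called (adjusted p = 0.107), and the call was also lost without either Daudi knockout replicate. The part of the myeloid genes in the marker values was not tested. Of 7 T cell markers, CD2 and CD5 were at 0 in every library, while LCK, a kinase that some B cell tumours also express, rose in Raji (37.6 ± 4.64 to 112 ± 32.3 CPM, log2 1.57, adjusted p = 0.0117), in all 12 fits. The 8 epithelial and fibroblast markers summed to at most 34.6 CPM in any library, and edgeR called 0 of the 3 that passed the filter in either line (1 in each at an unadjusted p under 0.05, and 1 in Raji by limma-voom).

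The genes whose pattern over the 12 libraries was most like that of MME were NBEA (Pearson r = 0.947), C11orf54 (0.939) and HSD17B12 (0.936), among 9532 genes with a mean of at least 5 CPM. NBEA had wild-type and knockout levels of 8.20 ± 1.00 and 14.6 ± 2.71 CPM in Raji and 13.1 ± 1.41 and 16.5 ± 1.71 CPM in Daudi. For CD38 they were ZNF189 (0.964), BIRC2 (0.952) and LYSMD3 (0.941). ZNF189 had 14.99 ± 1.81 and 23.4 ± 2.41 CPM in Raji and 29.6 ± 6.27 and 24.3 ± 2.48 CPM in Daudi, so it too was highest in Daudi wild type and lowest in Raji wild type. These correlations describe 12 libraries that share line and genotype.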

How the data were processed

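Total RNA of 12 libraries had been extracted with TRIzol and made into libraries with a TruSeq v2 kit, per the labels' protocols. STAR 2.5.0, RSEM 1.3.0 and hg38 are named, with no role, in the submitters' processing notes. In the 1 table the authors deposited, each library has whole-number counts per gene, neither normalised nor pooled. The sources used here do not say whether estimates were rounded. Groups came from the labels' line and genotype.

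From these counts, edgeR 4.0.16 in R 4.3.3 kept 12027 of 19919 genes with its default filter over the 4 groups, scaled by TMM and fitted robust quasi-likelihood models to all 12 libraries (8 residual degrees of freedom, common biological coefficient of variation 26.1%). Intervals used the t distribution on those degrees of freedom. Tested on simulated data, 69% of 100 genes changed by a log2 of 1 were recovered in the Raji comparison and 34% in Daudi. Alternatives were DESeq2 1.42.0, limma-voom (limma 3.58.1), other size factors, no filter, each line alone, Raji wild-type replicates 3 and 4 summed, and each library left out. Leaving out both wild-type replicates 1 was added after seeing the data.

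Reads carried no molecular identifiers, so the floor of 3 counts covers counting error only. GENCODE 29 gave exon lengths for 19689 genes, and exon overlaps were read for the 8 markers, FBXO11 and BCL6. The 8 markers were all described; from each list of B cell genes those past the threshold were named, at most 4 per comparison. The markers, the lists and these rules were chosen with earlier results of these data known.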

Additional observations from a re-analysis of the deposited data

Results flagged for a closer look

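GCSAM in Raji wild-type replicate 2 stood at 272 CPM, far from the other 3 libraries of its group, which had 457 to 477 CPM. The gap to the nearest of them was 0.903 of the range of the group, above Dixon's 95% critical value for 4 samples. The 8 markers gave 16 groups of 4 libraries, and chance alone flags about 1 in 20 such groups. This library was also the shallowest, with 11164332 counts. Without it the knockout effect on GCSAM in Raji was log2 -0.42, and it was not called.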

How the results depend on the processing

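MME in Raji and over both lines, and CD38, BCL7A and ELL3 between the wild-type lines, kept direction and call under each alternative run. Counts of markers called moved as follows. In Raji (2) they were 4 with limma-voom, 3 with DESeq2, 3 with Raji alone, 3 without both wild-type replicates 1, 1 with replicates 3 and 4 of the wild type summed, and 1 to 3 without 1 library. In Daudi (3) they were 2 with RLE size factors, 1 with no filter, 1 with the sum, 0 with limma-voom, 0 with each line alone, 0 without both wild-type replicates 1, and 0 to 3 without 1 library. Over both lines (2) DESeq2 gave 4, and fits without 1 library 1 to 3. For the difference between lines (0) DESeq2 gave 2, and fits without 1 library 0 to 1. Between wild-type lines (5) limma-voom gave 4. Over all genes, Raji calls (313) were 818 with DESeq2, 3519 with limma-voom, 139 with the sum, 494 without both replicates 1 and 138 to 427 without 1 library. Daudi calls (315) were 711 with DESeq2, 14 with Daudi alone, 74 without both replicates 1 and 37 to 934 without 1 library. Calls over both lines (408) were 966 with DESeq2, 210 with the sum, 196 without both replicates 1 and 91 to 840 without 1 library. Calls for the difference (93) were 502 with DESeq2, 228 with limma-voom, 29 with the sum, 39 without both replicates 1 and 6 to 500 without 1 library. The low ends without 1 library came from leaving out Daudi knockout replicate 2 (Raji: Raji knockout replicate 2) and the high ends from leaving out Daudi wild-type replicate 2. Signs turned only for values that were not called. Leaving out 1 library gave log2 -0.56 to 0.10 for GCSAM in Daudi, -0.61 to 0.16 for the line difference of ELL3, -0.35 to 0.32 for that of GCSAM, -0.11 to 0.0111 for BCL7A in Raji, and -0.25 to 0.40 for GCSAM and -0.0396 to 2.06 for LMO2 between wild-type lines. Without both replicates 1, GCSAM in Daudi was 0.0901, the line difference of ELL3 0.19 and of GCSAM -0.27, and BCL7A in Raji 0.0114. With the sum, GCSAM between wild-type lines was -0.0272. The cause of these shifts was not tested. No paired analysis was possible because the labels give no replicate numbers shared between groups. With 2 libraries a group, Daudi results are the least precise.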
